A study of Mus musculus with 2 samples.

Results

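Eomes, Lhx1, Otx2 and Fst are regulators of gastrulation, the stage at which the epiblast forms the germ layers. They were chosen by name, with earlier results of these data known. Every probe whose target identifier carries the NCBI Gene number of 1 of them was kept (13813, 16869, 18424 and 14313). Each of the 4 genes had 1 such probe, out of 9796 probes of 8102 genes named in this way and 46643 probes on the array. Mouse cells labelled ES at day 0 were compared with cells labelled EB at day 4, with 1 array of total RNA per label. The abbreviations are read here in their common sense, as undifferentiated embryonic stem cells (ES) and the embryoid bodies (EB) they form when left to differentiate in aggregates. The labels give no strain, cell line, culture medium or agent for either sample.

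In the mouse embryo the primitive streak forms where Nodal, WNT and BMP signals meet in the posterior epiblast. Nodal and activin are ligands of the transforming growth factor beta family that act through Smad proteins. Eomes, a T-box transcription factor also called Tbr2, is a target of Nodal signalling that is needed for epiblast cells to leave the streak and for definitive endoderm and cardiac mesoderm to form. Lhx1, also called Lim1, is a LIM homeodomain factor of the streak, node and anterior visceral endoderm, without which the embryo lacks anterior head structures. Otx2 is a bicoid-class homeodomain factor of the epiblast, later of the anterior neural plate and axial mesendoderm, and it takes part in the exit from naive pluripotency. Fst encodes follistatin, a secreted protein that binds activin tightly and BMPs more weakly and keeps them from their receptors.

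There was no replicate, so no test was run and no p-value is given. Culture, array position and day cannot be told apart. Errors below are bead-level standard errors (SE), which cover the beads of a probe within an array and no biological variation. A median of 38 beads in ES and 37 in EB lay behind each signal, and the median raw signal was 173.9 in ES and 173.3 in EB. In bulk RNA a higher signal can come from more cells of a type or from more RNA per cell, and these cannot be told apart. Signals under 230.0 after normalization count as under the floor, which is the lowest normalized signal in EB with a detection score above 0.99. Of 343 probes of olfactory receptor genes, a background class, the highest normalized signal was 224.6 in ES and 233.9 in EB. Of 20 listed markers of undifferentiated ES cells 12 had a named probe, all 12 were above the floor in ES and 5 in EB. None of those markers was higher in EB and 10 were lower at 2-fold. Of all named genes above the floor in at least 1 array 3.72% were higher and 5.35% lower.

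Because all 4 genes were higher in EB, the sequence upstream of their starts is shown. RefSeq windows of assembly GRCm38.p6 matched 3 of the 4 genes, with 1 window each for Eomes and Lhx1 and 4 for Otx2. Fst had no entry. The 250 bases before a start were searched on both strands for TCACAC (T-box core), TAATCC (bicoid-class homeodomain), TAATTA (LIM-class homeodomain), CAGAC (Smad), TATAAA and GGGCGG, and matches are in capitals. TAATCC and TAATTA share their first 4 letters, and no matches overlapped in these windows. The windows below are those of Eomes and Lhx1, the outermost window of Otx2 and the Otx2 window with the most matches.
Eomes, chr9:118477939-118478188, plus strand: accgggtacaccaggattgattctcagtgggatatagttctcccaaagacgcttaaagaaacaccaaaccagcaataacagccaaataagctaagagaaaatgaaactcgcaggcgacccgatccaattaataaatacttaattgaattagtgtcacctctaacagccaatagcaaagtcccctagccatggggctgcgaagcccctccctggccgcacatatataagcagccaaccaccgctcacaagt
Lhx1, chr11:84525535-84525784, minus strand: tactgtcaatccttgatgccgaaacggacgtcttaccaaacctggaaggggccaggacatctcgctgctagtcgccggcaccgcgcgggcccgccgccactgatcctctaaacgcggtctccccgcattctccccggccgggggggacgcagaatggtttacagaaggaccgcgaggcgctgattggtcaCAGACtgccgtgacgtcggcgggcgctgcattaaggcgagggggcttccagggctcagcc
Otx2 outermost start, chr14:48667645-48667894, minus strand: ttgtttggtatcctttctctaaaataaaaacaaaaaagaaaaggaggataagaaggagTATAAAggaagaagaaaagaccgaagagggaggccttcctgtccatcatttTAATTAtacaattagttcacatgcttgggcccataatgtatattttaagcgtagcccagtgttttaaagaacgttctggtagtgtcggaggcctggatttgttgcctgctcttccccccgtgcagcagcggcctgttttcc
Otx2 inner start, chr14:48665110-48665359, minus strand: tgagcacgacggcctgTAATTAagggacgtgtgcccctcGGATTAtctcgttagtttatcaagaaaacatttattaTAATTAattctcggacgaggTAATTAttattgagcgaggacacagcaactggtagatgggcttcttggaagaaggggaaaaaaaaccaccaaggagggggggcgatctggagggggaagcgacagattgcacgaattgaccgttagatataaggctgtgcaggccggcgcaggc

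The inner Otx2 window held 3 matches to TAATTA, beginning at -234, -174 and -154 (position -1 is the base before the start), and 1 match to TAATCC on the opposite strand at -211. Of 32851 RefSeq windows of the same length 4.84% held TAATTA and 6.25% held TAATCC. The outermost Otx2 window held TAATTA at -141 and TATAAA at -192, the latter found in 12.4% of all windows. The other Otx2 windows, the second and the fourth, held no match. In the Lhx1 window CAGAC began at -60, and 42.2% of all windows held it. No match was found in the Eomes window, and TCACAC (in 12.3% of all windows) and GGGCGG (in 32.7%) were found in none of the 6 windows, which says only that these letters are not there. The share of G and C was 46.4% upstream of Eomes, 64.8% upstream of Lhx1 and 42% and 48.4% in the Otx2 windows shown, against a median of 52.4%. A match is a description of letters and not a binding site.

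The comparison asked how the levels of these regulators differ between undifferentiated cells and cells at day 4 of differentiation. By measured signals all 4 genes were higher in EB, by 3.95-fold or more, in the order Lhx1, Eomes, Otx2 and Fst. Otx2 and Fst were not separated at 2 SE. Among the 3867 named genes above the floor in at least 1 array, 144 (3.72%) were higher in EB at 2-fold. Lower at 2-fold were 207 (5.35%). The 2-fold limit is a log2 difference of at least 1 in either direction. These shares are the background for each count from a list. The 4 genes were chosen with earlier results known, so their passing the limit is not separate evidence that they stand out. All 4 genes were above the floor in EB, with a detection score of 1. In ES Eomes, Otx2 and Fst were above it and Lhx1 was not, so Lhx1 was counted through EB alone. The median log2 difference over the 3867 genes was 0.06, with quartiles of -0.26 and 0.35.

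Eomes (identifier scl0013813.2_225-S) had a raw signal of 265.8 in ES, with a bead-level SE of 19.3 over 27 beads. In EB its raw signal was 1855.1, with an SE of 81.1 over 36 beads. After quantile normalization over both arrays the signals were 259 and 1828. The EB signal was high and the ES signal lay close to the floor, at 1.13 times its value. The range of 2 SE around the ES signal, 221 to 297, took in the floor, so at 2 SE Eomes was not separated from the floor in ES. Eomes was 7.06-fold higher in EB, a log2 difference of 2.82 with an SE of 0.12.

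Lhx1 (identifier scl0016869.2_138-S) had a raw signal of 185.6 in ES (SE 12.9, 33 beads) and 2129.6 in EB (SE 84.4, 34 beads). Its normalized signals were 185 and 2107. The range of 2 SE in ES, 159 to 211, lay wholly under the floor, and the EB signal was 9.16 times the floor. By its measured EB signal (range of 2 SE, 1940 to 2274) Lhx1 was therefore at least 9.16-fold higher in EB, a bound that leaves out the EB bead error. Its measured log2 difference of 3.51 (SE 0.12) was taken against background, and against the floor it was 3.20. This was the widest difference of the 4 genes on either basis.

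Otx2 (identifier scl018424.1_30-S) had a raw signal of 343.9 in ES (SE 4.36% of the signal, 28 beads) and 1566.9 in EB (SE 4.07%, 31 beads). The normalized signals were 336 and 1542. Of the 4 genes Otx2 stood farthest above the floor in ES, at 1.46 times its value: its range of 2 SE, 307 to 365, lay above the floor and above the brightest olfactory receptor probe. Otx2 transcript was thus measured in both samples, and it was 4.59-fold higher in EB, a log2 difference of 2.20 with an SE of 0.09.

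Fst (identifier scl014313.3_29-S) had a raw signal of 266.4 in ES (SE 13.4, 48 beads) and 1027.4 in EB (SE 33.4, 58 beads). The normalized signals were 260 and 1024. In ES the range of 2 SE, 234 to 286, lay just above the floor, and in EB the signal was 4.45 times the floor. Fst was 3.95-fold higher in EB, a log2 difference of 1.98 with an SE of 0.09. This secreted antagonist had the smallest measured difference of the 4 genes, close below 4-fold. It lay within 2 SE of 4-fold and was not separated from that of Otx2.

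**Figure D1:**
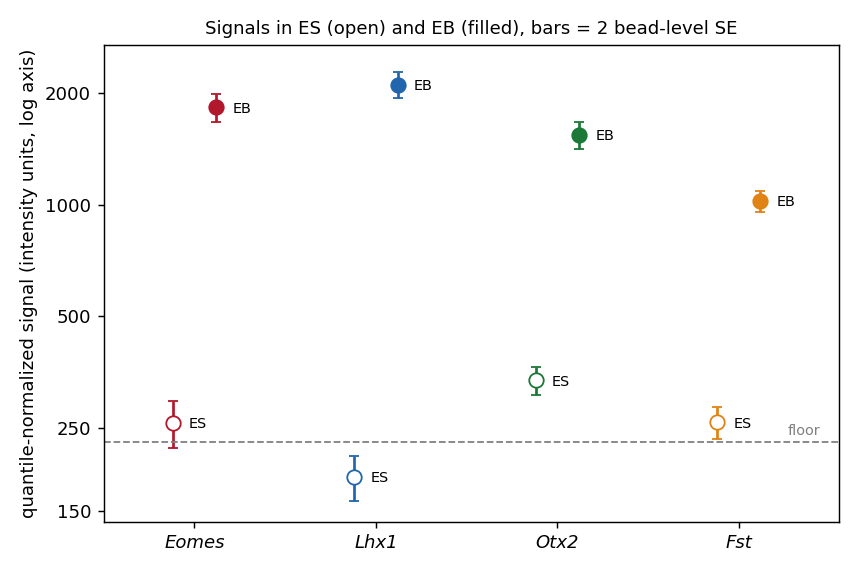
Quantile-normalized signal (log axis, intensity units) of the 4 genes in ES (open points) and EB (filled points), 1 array each, with bars of 2 bead-level SE and a dashed line at the floor of 230.0. The EB points lie between 1024 and 2107, and the ES points between 185 (Lhx1, under the floor) and 336 (Otx2); a probe's brightness also depends on its sequence, so heights are not compared between genes.

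In the order of the differences not every step exceeded the bead error. Eomes minus Lhx1 was -0.69 on the log2 scale (SE 0.17) by measured signals, of which that of Lhx1 in ES was background, and -0.38 with Lhx1 set to the floor, where it is a bound. Eomes exceeded Otx2 by 0.62 (SE 0.15). Otx2 and Fst differed by 0.22 (SE 0.12), under 2 SE, so these neighbours are not separated. With the authors' value table their order turned, with log2 differences of 3.15 for Otx2 and 3.46 for Fst. Among the 3313 genes above the floor in both arrays the difference of Eomes ranked 4 from the top, that of Otx2 13 and that of Fst 16. The genes were chosen with earlier results known, so these ranks are not separate evidence that they stand out. Lhx1, with its ES signal under the floor, has no rank.

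**Figure D2:**
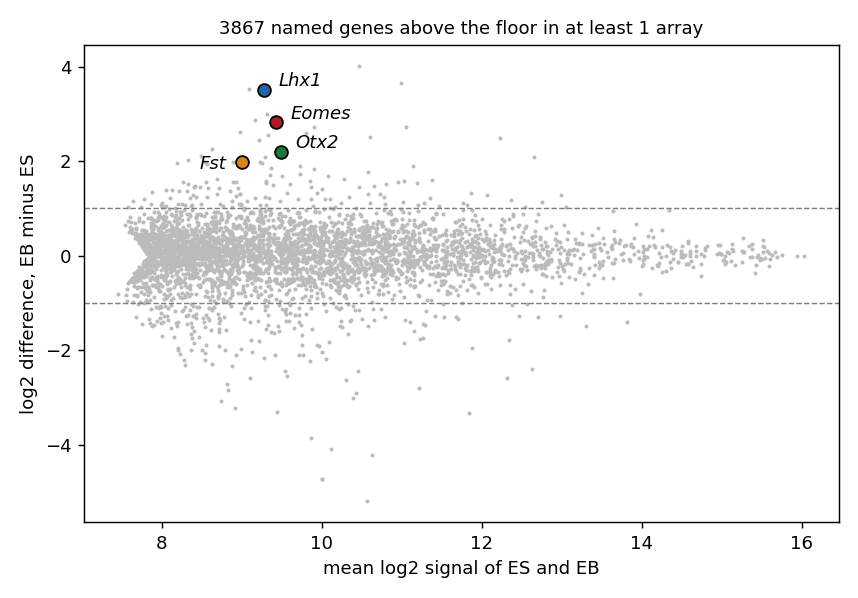
Log2 difference, EB minus ES, against the mean log2 signal of both arrays for the 3867 named genes above the floor in at least 1 array (grey) and the 4 genes (coloured), with dashed lines at the 2-fold limits. The 4 genes lie at mean signals where most genes stay within the limits, with differences from 1.98 (Fst) to 3.51 (Lhx1).

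The size of the differences changed with normexp background correction and in the authors' value table, and the direction did not under the settings tried. With normexp background correction Eomes was 8.93-fold, Otx2 5.39-fold and Fst 4.85-fold higher by measured signals. In the authors' value table, whose low end is stretched downward, Eomes read 76.0 in ES and 1646 in EB, Otx2 153 and 1360, and Fst 76.7 and 842. Lhx1 had 20.5 and 1924 there. The log2 differences in that table were 4.44 for Eomes and 6.55 for Lhx1. Without normalization the 4 log2 differences were 2.80 for Eomes, 3.52 for Lhx1, 2.19 for Otx2 and 1.95 for Fst, within 1 bead-level SE of the values above.

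**Figure D3:**
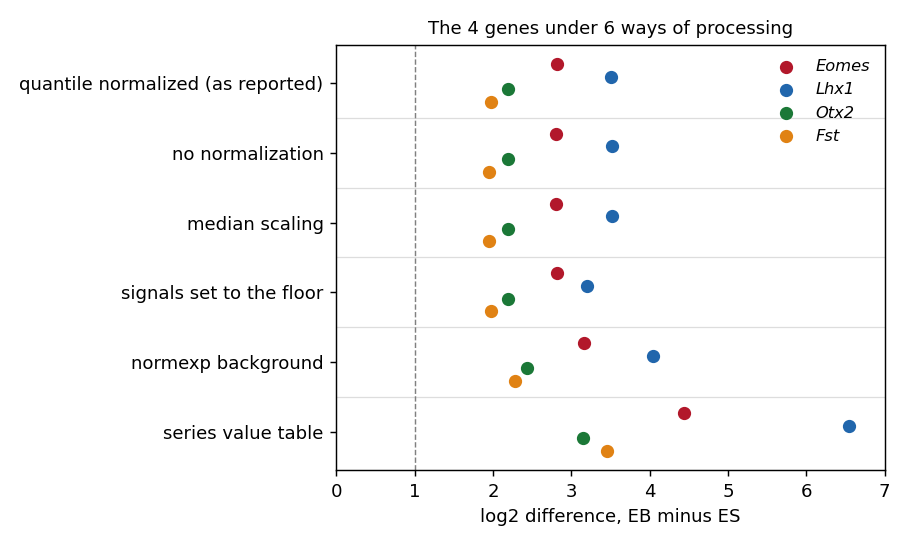
Log2 difference, EB minus ES, of the 4 genes with quantile normalization, as reported, and under 5 other ways of processing, with a dashed line at the 2-fold limit. All points lie above the limit; the series value table gives the widest differences, from 3.15 (Otx2) to 6.55 (Lhx1), and is the 1 setting shown in which Fst exceeds Otx2.

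Genes with the most similar pair of signals were named by distance in log2 signal over the 2 arrays, with signals under the floor set to it. A distance over 2 points is a thin measure of likeness, and it takes in the probe's brightness. Closest to Eomes were Klhl6 (distance 0.01), Fgf10, a ligand of fibroblast growth factor receptors (0.01), and Unc5c, a netrin receptor (0.17). Klhl6 had normalized signals of 260 in ES and 1815 in EB, and Fgf10 257 and 1834. The second probe of Klhl6 exceeded the floor in neither array, and the Fgf10 probes gave log2 differences of 2.84 and 1.46.

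Closest to Lhx1 were Unc5c (distance 0.18), the homeobox gene Hoxb2 (0.24) and Fgf10 (0.26). Unc5c and Hoxb2 were, like Lhx1, under the floor in ES, and they were at least 8.08-fold and at least 7.78-fold higher in EB. Closest to Otx2 were Defa31 (0.29), St3gal6, a sialyltransferase (0.31), and Rbmx, an RNA-binding protein (0.34). Closest to Fst were Clic6 (0.16), Rasgrp3, an activator of Ras-family GTPases (0.30), and Prtg, which encodes the cell surface protein protogenin (0.31). Clic6 had signals of 241 and 944 and Prtg 303 and 1192, with log2 differences of 1.97 and 1.98 against 1.98 for Fst.

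The relatives of each gene were set beside it. Of 17 listed T-box factors 9 had a named probe, and 2 of these 9 (22.2%) were above the floor in at least 1 array, against 47.7% of all named genes. These were Eomes and Mga, a T-box protein that also binds the Myc partner Max, whose log2 difference was -0.15. Tbx1, Tbx4, Tbx5, Tbx10, Tbx15, Tbx18 and Tbx22, factors of later organs and limbs, lay between 150 and 209 in ES and between 140 and 198 in EB. The T-box family thus gave 1 gene higher at 2-fold, Eomes, and none lower. The founding member T (Brachyury) is not analysed here.

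Of 12 LIM homeodomain factors 6 had a named probe, and Lhx1 was the 1 above the floor. Lhx3, Lhx5, Lhx6, Lhx8 and Lhx9, mostly factors of neurons and gonads, had signals of at most 169 in ES and 168 in EB. LIM cofactors and LIM-only proteins were measured more widely, and all 6 with a named probe exceeded the floor in ES, EB or both. Lmo2, a LIM-only protein of blood and endothelial progenitors, was at least 6.76-fold higher. Ssbp3 and Ssbp2, which stabilise the Ldb1 complexes through which LIM homeodomain proteins act, had log2 differences of 0.92 and 0.39. Ldb2, a LIM-binding cofactor, and Rlim, a ubiquitin ligase for LIM cofactors, were under the floor in ES. Ldb2 was at least 1.30-fold higher. Rlim had an EB signal of 1.06 times the floor. Its log2 difference of 0.15 (SE 0.14) was under 2 SE, so its levels are not separated. Ssbp4, a relative of Ssbp3 and Ssbp2, was 2.03-fold lower (log2 difference of -1.02), and without normalization it fell short of the limit at -0.97. Over the 7 genes of the combined list above the floor, 2 were higher, 1 was lower and 4 were neither, with a median of 0.79 against 0.06 for all genes. Of the 7, 4 were above the floor in EB alone, which fixes their direction, and the 2 higher genes, Lhx1 and Lmo2, are among these. Of all 295 genes above the floor in EB alone, 41 (13.9%) were higher at 2-fold, or 23 (7.80%) against the floor. With signals set to the floor the median was 0.39 for the 7 genes and for the 6 without Lhx1, against 0.05 for all genes.

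Of 24 listed factors related to Otx2 in the paired class 9 had a named probe, and Otx2 was the 1 above the floor. Pitx1, Pitx3, Dmbx1, Alx4, Prrx1, Prrxl1, Rax and Shox2 lay between 138 and 190 in ES and between 134 and 201 in EB. The counts above the floor were 1 of 9 here, 1 of 6 for LIM homeodomain factors and 2 of 9 for T-box factors.

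In the Nodal and activin pathway, whose Nodal branch lies upstream of Eomes and whose activin branch Fst restrains, 14 of 35 listed genes had a named probe and 9 were above the floor. Of these 9 genes 1 was higher (Fst), 2 were lower and 6 were neither, where 3.72% of all genes were higher and 5.35% lower. Of the 8 genes other than Fst, 0 were higher. The median log2 difference of the 9 was -0.04 against 0.06 for all genes. Lefty1 and Lefty2, secreted antagonists of Nodal, were lower by 16.9-fold and 2.60-fold, so the antagonists of the pathway differed in opposite directions. Smad4, the Smad shared by all branches of the family, measured 3153 in ES against 4961 in EB, and its log2 difference was 0.65. Gdf1, a ligand that pairs with Nodal, had -0.16. Tdgf1, the Nodal co-receptor Cripto, had -0.17 near the floor. Trim33, a Smad partner, had -0.04, and its other probes gave 0.16 and 0.11, so its sign differs between probes. Acvr2a, a type II activin receptor, was under the floor in ES and had a signal of 281 in EB. Nodal, Foxh1 and the activin subunit genes are not analysed here.

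BMPs are the other ligands that follistatin binds. Of 25 listed BMP pathway genes 6 had a named probe and 4 were above the floor, and none of the 4 passed the 2-fold limit. The 4 log2 differences ran from 0.57 to 0.97, with a median of 0.64 against 0.06 for all genes. Id3, a BMP target, measured 1253 in ES against 2457 in EB, and its log2 difference of 0.97 passed the limit without normalization at 1.02. Twsg1, a secreted BMP modulator, had 0.68. The receptors Acvr1 and Bmpr1a had 0.60 and 0.57, and the second probe of Bmpr1a gave 0.43. The second probe of Twsg1 was under the floor in both arrays.

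Of 29 listed genes of the primitive streak and mesendoderm 6 had a named probe, and all 6 were above the floor in at least 1 array. Lhx1, Eomes and Fst were the 3 higher ones. Of the other 3, Lefty2 was lower, Tdgf1 gave -0.17, and Fgf4, an epiblast and streak growth factor also made by ES cells, gave -0.99 with an EB signal under the floor, which against the floor is at least 1.35-fold lower. By measured signals Fgf4 passed the limit without normalization, at -1.03. The median of the 6 was 0.91, and that of the 3 without these genes was -0.99, or -0.43 with signals set to the floor. In the list for the node, axial mesendoderm and anterior organiser, where Lhx1 and Otx2 act together in the embryo, 5 of 21 genes had a named probe and all 5 were above the floor in at least 1 array. Besides Lhx1 and Otx2, Frzb, a secreted WNT antagonist, was higher, at 159 in ES and 648 in EB (at least 2.82-fold). Lhx1 and Frzb were above the floor in EB alone, which fixes their direction. Lefty1 was lower, and Sfrp1, another secreted WNT antagonist, had a log2 difference of -0.01.

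**Figure D4:**
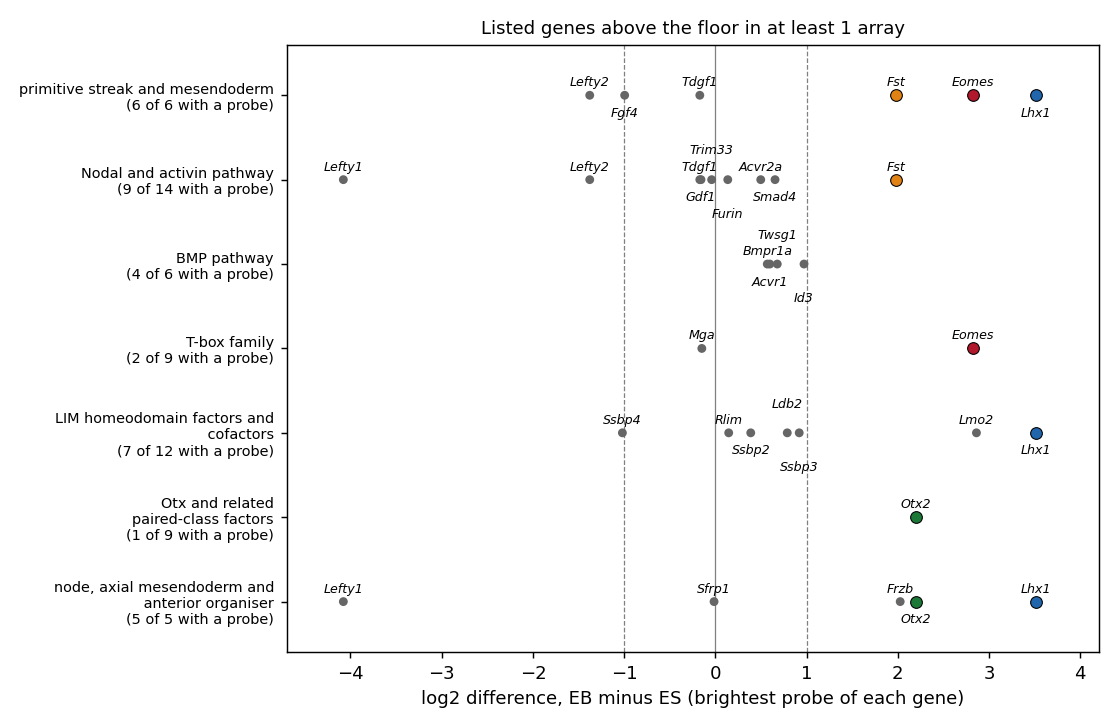
Log2 difference, EB minus ES, of listed genes above the floor in at least 1 array, by list, with the 4 genes coloured and dashed lines at the 2-fold limits; labels give how many of the genes with a named probe are above the floor. Eomes, Lhx1, Otx2 and Fst lie at 1.98 or more, Lefty1 lies farthest to the left at -4.08, and the 4 BMP pathway genes lie between 0.57 and 0.97.

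Each of the 4 genes is also made by other cells, so marker lists were read beside them. Eomes is a factor of trophoblast stem cells: of 18 trophoblast genes 11 had a named probe and 9 were above the floor. Besides Eomes, Gata3 (2.68-fold) and Plac1 (at least 2.36-fold, above the floor in EB alone) were higher. Tfap2c (5.42-fold) and Krt19 (3.49-fold) were lower and 4 were neither. The second probe of Tfap2c, above the floor in both arrays, gave -0.66 on the log2 scale, short of the limit. The summed signal of the 11 probes was 32587 in ES and 30424 in EB, of which Krt8 and Krt18 made up 26689 and 25469, and the other 9 probes summed to 5897 and 4955. The trophoblast markers Ascl2 and Prl3d1 were under the floor in both arrays. Lhx1 and Otx2 are also made in visceral endoderm: of 19 genes of primitive and visceral endoderm 6 had a named probe and 5 were above the floor, with Gata4 higher and Trf lower by measured signals and 3 neither. For Gata4 in ES and Trf in EB the signal was under the floor, and against the floor neither gene passed 2-fold (at least 1.97-fold and at least 1.40-fold). The summed signal of the 6 primitive and visceral endoderm probes was 1907 in ES and 2279 in EB. Otx2 marks neural ectoderm too, where 3 of 7 probes were above the floor and none passed the limit. The summed signal of the 7 was 2902 in ES and 4192 in EB, of which Sox11 made up 1605 and 2988. Sox11 had a log2 difference of 0.90 and Nes one of 0.00, and Tubb3, under the floor in EB, had -0.21. Pax6 and Six3 were under the floor in both arrays. No background was subtracted, so each summed signal includes it. The median olfactory receptor probe read 153 in ES and 153 in EB. The part of these cell types in the results was not tested.

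Of 12 listed primed epiblast genes 4 had a named probe and 2 were above the floor, Otx2 and Sox4, whose log2 difference was 0.37. Zic5 and Lef1 were under the floor in both arrays. In the definitive endoderm list Gata4, at least 1.97-fold higher, was the 1 gene with a named probe, so the list says little. Of 28 listed mesoderm genes 6 had a named probe and 5 were above the floor. Of these 5, Myl7 (3.28-fold) and Cdh2 (3.10-fold) were higher and Pecam1 (2.53-fold) was lower. Lmo2 and Zeb2 were above the floor in EB alone, which fixes their direction. Against the floor Lmo2 was at least 6.76-fold higher and Zeb2 gave 0.85 on the log2 scale. The second probe of Zeb2 was under the floor in both arrays. The second probe of Cdh2 was under the floor in ES and gave 0.84 against it, short of the limit, and the third was under the floor in both arrays. The 5 blood genes above the floor were so in EB alone, which fixes their direction, so they are not counted. Of 4 fibroblast genes above the floor Fbln2 was 6.04-fold higher and Col1a1 2.58-fold lower. The summed signal of the 9 fibroblast probes, background included, was 6072 in ES and 5624 in EB. The part of these cell types, too, was not tested.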

How the data were processed

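RNA of 2 samples was measured on 1 bead array each. Per the file headers the deposited signal intensity is the mean over a probe's beads, exported by BeadStudio 2.3.41 with no normalization, and no background step is named, although the sample titles call the data normalised. The submitters' processing notes also list BeadStudio 2, RMA and limma, with no role given. The deposited detection score, a fraction from 0 to 1, was in the EB file alone. The authors' value table, whose making is not stated, holds intensity on a linear scale with nearly equal distributions in both arrays, and served as an alternative. The bead spread scaled with the number of beads by a slope of -0.44 in ES and -0.47 in EB (log scales, signals of at least 1000), so it was read as a standard error. For the array's annotation a genome build is not given in those sources.

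Signals were quantile normalized over both arrays without background subtraction and compared as log2 differences, EB minus ES. Gene numbers of at least 10000, zero-padded in the identifiers, were matched to symbols in RefSeq (GRCm38.p6): 9796 of 11857 such probes matched. Each gene was read by the probe with the highest mean log2 signal. Ratios use the floor of 230.0 (raw EB signal 225.7) where the dimmer signal lay under it. These bounds, worded as at least, use the brighter signal as measured and leave out its bead error. Alternatives were no normalization, median scaling, the value table, normexp (offset 50, limma 3.58.1 in R 4.3.3), signals set to the floor, the mean over probes, size rules of 1.5-fold and 4-fold, and other detection rules. The 7 gene lists and 9 marker lists and the genes themselves were chosen with earlier results of these data known (1 gene was left out of them and is not reported here). From each gene list every gene past 2-fold and up to 4 others, by highest mean signal, are named, with 3 nearest genes per member; from the marker lists, and for Acvr2a and for genes under the floor, examples were picked after their values were seen. The scripts were tested on simulated data (Python 3.11.15). The probes changed there were bright in ES, so rises from signals near the floor were not simulated.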

Additional observations from a re-analysis of the deposited data

How the results depend on the processing

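No paired analysis was possible because ES and EB are single samples, and none could be left out. The floor limits Lhx1 most, since its ES signal was under it, and Eomes in ES lay within 2 bead-level errors of the floor. All 4 genes stayed higher at 2-fold under the 6 settings tried on them. Without normalization, with median scaling and with the mean over probes, which for 1 probe a gene changes nothing, each stayed within 1 bead-level error. With normexp background the log2 differences were 3.16 for Eomes, 4.05 for Lhx1, 2.43 for Otx2 and 2.28 for Fst; with the series value table they were 4.44, 6.55, 3.15 and 3.46; signals set to the floor gave 3.20 for Lhx1. Counts of named genes higher and lower (144 and 207) became 527 and 468 with the series value table, 479 and 463 at 1.5-fold and 23 and 40 at 4-fold. With the floor required in both arrays 134 were lower. At 4-fold Lhx1, Eomes and Otx2 passed and Fst did not. The range of 2 bead-level errors for Fst, 1.81 to 2.15 on the log2 scale, took in that limit. In the gene lists 42 of 49 recounts stayed within 1.5 times, and the other 7 concerned the BMP and LIM lists.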
